A study of Mus musculus with 187 samples.

Results

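The zinc finger genes followed here are the 173 genes whose symbol is Zfp with a number, plus Rex2, that were listed in both tables of 2-cell mouse embryos, after 6 symbols were set aside by name (Zfp352, Zfp750, Zfp488, Zfp57, Zfp36 and Zfp473). They are 173 of the 8734 genes that both tables list, and 4 of the symbols set aside are listed there too. The rule used the symbol and the presence in both tables, not a difference between groups. Their values were read in 186 single FVB embryos, each a separate RNA-seq library. Zygotes made by in vitro fertilisation, from parents that had eaten a control diet, received RNA by injection 2 h later and grew to the 2-cell or the 4-cell stage, and embryos with a GFP signal were picked. The labels do not name the GFP mRNA for the groups other than GFP. The sperm RNA table held 42 embryos given small RNA from sperm of control males and 46 given small RNA from sperm of males on a low protein diet. The tRF table held 26 embryos given a tRF-GlyGCC oligonucleotide with modified bases, 6 given tRF-GluCTC and 11 given H3.3-GFP mRNA. Such fragments are pieces of transfer RNAs, here of the glycine or the glutamate tRNA. The 4-cell table held 28 embryos given the GFP mRNA and 27 given an antisense oligonucleotide to tRF-GlyGCC; another embryo labelled antisense had no column and was not analysed here.

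Zfp genes code for proteins with C2H2 zinc fingers, in which a zinc ion is held by cysteines and histidines and each finger can contact DNA. Many of them also carry a KRAB domain, which binds the corepressor KAP1 (Trim28) and, through it, the histone methyltransferase Setdb1, and such proteins silence retroelements and protect imprints in the early mouse embryo. The family grew by duplication, so neighbouring genes are often close copies. Other Zfp genes have unrelated roles, in pluripotency, RNA handling or the spindle, and share only the name of the fold.

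The copies matter for every value below, because reads from a shared stretch cannot be assigned to 1 gene. Across the transcripts of the 173 genes, 73 genes shared no 50-base stretch with another gene, while 12 shared more than 50% of their stretches. Rex2 (mm10, chromosome 4, 146973610 to 147060799) shared 90.3% of its 50-base stretches and Zfp600 (chromosome 4, 146156827 to 146198756) shared 84.7%, with each other and with neighbours such as Zfp980. Their coding sequences, of 2055 and 2211 bases, were 97.9% identical where they align, with 43 differing bases, 162 gap positions and an identical run of 612 bases. The 120-base stretch below is the ungapped coding window in which Rex2 and Zfp600 differ most, at 19 bases shown in capitals (bases 1759 to 1878 of the Rex2 coding sequence and 1843 to 1962 of the Zfp600 one, in the GENCODE transcripts). No other ungapped window of this length held more differing bases; gap positions were not counted.
Rex2: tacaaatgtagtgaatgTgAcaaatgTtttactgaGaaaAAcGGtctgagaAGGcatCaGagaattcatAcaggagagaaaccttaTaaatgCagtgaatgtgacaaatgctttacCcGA
Zfp600: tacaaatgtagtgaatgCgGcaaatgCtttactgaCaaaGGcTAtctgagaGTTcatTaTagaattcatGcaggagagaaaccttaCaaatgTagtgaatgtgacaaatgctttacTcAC

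The likeness reached the promoter windows listed for both genes. Promoter windows of RefSeq (GRCm38) ran from 250 bases before to 50 bases after the start. With the chromosome named in the processing section left out, 145 of the 173 genes had such a window. The same chromosome was left out of the promoters compared with them below. A gene counted without a window may therefore have one in RefSeq. The first window listed for each gene was used. The Rex2 window lies inside the gene span given above and not at an end of it, while the Zfp600 window lies at the start of its span. The Zfp600 window matched the Rex2 window at 299 of 301 aligned columns with 0 mismatches, so only the Rex2 window is printed (chr4:147021600-147021899, plus strand), with its 5 CpG pairs in capitals.
Rex2 promoter: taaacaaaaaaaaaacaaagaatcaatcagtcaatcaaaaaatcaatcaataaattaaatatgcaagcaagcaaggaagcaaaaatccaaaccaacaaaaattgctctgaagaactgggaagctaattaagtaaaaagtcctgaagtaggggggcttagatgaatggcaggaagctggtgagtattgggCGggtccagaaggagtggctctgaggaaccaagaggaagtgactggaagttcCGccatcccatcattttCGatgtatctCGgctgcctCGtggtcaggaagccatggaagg
The 145 promoters held a median of 14 CpG pairs in 300 bases, with a range of 2 to 54, against a median of 7 over 27025 promoters. The letters GGGCGG, read on both strands, were in 74 of the 145 windows (51%) and in 35.9% of all windows. The letters GGATTA, which can overlap them at a shared GG, were in 12 windows (8.28%, against 7.16%). A match describes these letters in these windows only.

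The 2-cell libraries held 643981 to 4563539 counts, and the zinc finger genes together took a small, steady share of them. In control sperm RNA embryos they took 1.15 to 1.89% of the counts (mean 1.49% ± 0.16, SD, n = 42), and in low protein sperm RNA embryos 1.13 to 1.85% (mean 1.496% ± 0.153, SD, n = 46). The means were 1.51% ± 0.16 (SD, n = 11) in GFP embryos, 1.42% ± 0.15 (SD, n = 26) after tRF-GlyGCC and 1.39% ± 0.13 (SD, n = 6) after tRF-GluCTC, and the ranges of all 5 groups overlapped. A control sperm RNA embryo had counts for 146 to 173 of the genes. In the sperm RNA table, 69 genes had a count in every embryo. In bulk RNA of an embryo, fewer cells holding a transcript and less of it per cell cannot be told apart. At the 4-cell stage, where the unit is FPKM, the genes took 0.690% ± 0.114 (SD, n = 28) of the FPKM sum in GFP embryos and 0.778% ± 0.138 (SD, n = 27) after the antisense oligonucleotide. As a check of stage and purity, the oocyte transcripts Gdf9 and Bmp15 and the 2-cell transcripts Zscan4d and Zfp352 were present at the 2-cell stage, with control medians of 292.6, 735.3, 260.6 and 631.4 CPM. The 8 cumulus cell markers were not among the genes of the 2-cell tables, and at the 4-cell stage their summed level had a median of 0.249 FPKM (highest 1.28) in GFP embryos and 0.225 FPKM (highest 1.92) after antisense, with Has2 at 0 in every GFP embryo.

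Levels were spread widely. Per kilobase of transcript, so that genes can be compared, the 172 genes with a known length ran from 1.504 to 262.6 CPM per kb (CPM are counts scaled to the library size) in the sperm RNA table, with a median of 13.8. Their median place among all genes of that table was the 43.9th percentile, 76 lay above the median gene and 10 above the 90th percentile. The 10 highest by level per kb were Zfp707, Zfp936, Zfp821, Zfp296, Zfp706, Zfp622, Zfp960, Zfp143, Zfp131 and Zfp54. The tRF table gave 9 of the same 10 at the top, with Zfp655 (105.4 CPM per kb) in the place of Zfp131. The lowest in the sperm RNA table were Zfp846, Zfp871, Zfp316, Zfp607 and Zfp329, and in the tRF table Zfp646, Zfp846, Zfp423, Zfp507 and Zfp871. Levels per kb of the genes correlated at r = 0.97 between the tables, on the log2 scale over 171 genes that share depth, length and sequence, which is given as a description.

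Zfp707 (chromosome 15, 75969123 to 75975868) was first at 262.6 CPM per kb. In control sperm RNA embryos it ran from 0 to 871.8 CPM with a median of 428.8, and 2 of the 42 embryos had none. Zfp936 (chromosome 7, 43114166 to 43192109) was next at 219.8 CPM per kb and ran from 67.6 to 1723 CPM with a median of 635.4. Both genes thus varied over more than a 10-fold range between embryos of the same group. Zfp296, a nuclear protein of pluripotent cells, stood at 197.6 CPM per kb and was narrower, from 82.9 to 608.1 CPM with a median of 303.7. Zfp622, which in human cells and its yeast counterpart acts in maturation of the large ribosomal subunit, stood at 177.0 CPM per kb and ran from 54.0 to 1462 CPM with a median of 454.4. Rex2 came at place 20 with 56.8 CPM per kb and Zfp600 at place 29 with 43.9. Rex2 ran from 73.5 to 474.1 CPM with a median of 215.2, and Zfp600 from 37.5 to 421.3 CPM with a median of 166.2. In these levels low protein embryos overlapped the control embryos for each of the 12 genes plotted.

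**Figure D1:**
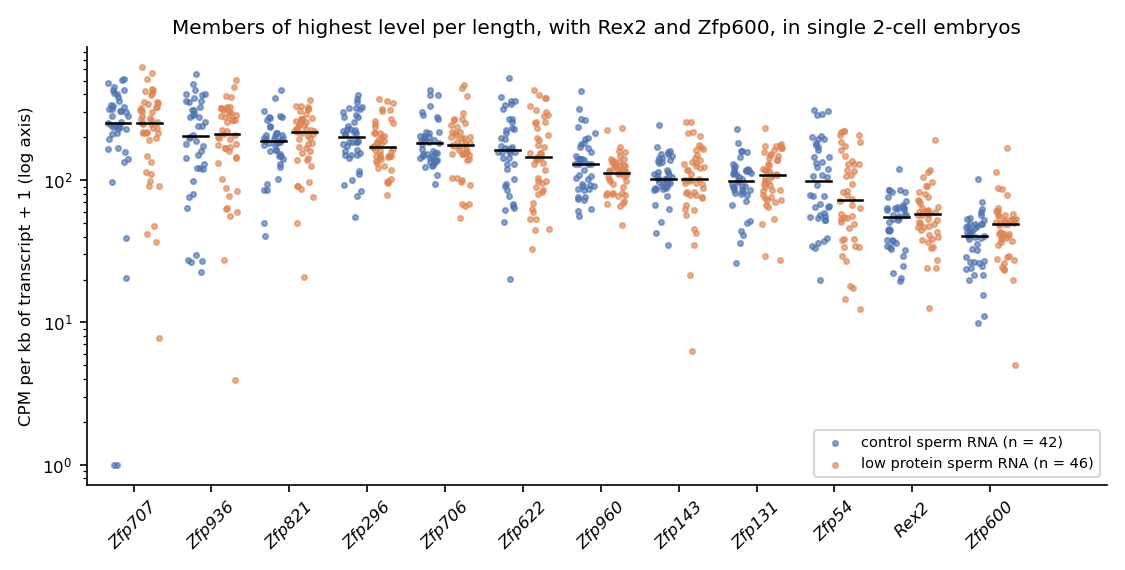
Level per kilobase of the 10 zinc finger genes of highest level, with Rex2 and Zfp600, in single 2-cell embryos of the sperm RNA table (log axis, 1 added to each value). Points are embryos (42 control, 46 low protein) and bars are medians; the 2 groups overlap for every gene, and 2 control embryos have no Zfp707 count.

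Among genes with a mean of at least 20 CPM in the control embryos, 141 of the 173, the spread between embryos had a median coefficient of variation of 65.9%. It was 56.6% over all 6717 genes past the same limit. The 2 sets were not matched by level, so the part of level in this difference was not tested. The steadiest were Zfp106 (28.3%), an RNA-binding protein, Zfp143 (34.9%), an activator bound at many promoters, Zfp574 (37.4%), Zfp534 (39.1%) and Zfp592 (39.1%), a partner of Zfp687 and Zfp532 in a chromatin complex. Zfp106 ran from 148.0 to 577.5 CPM with a median of 273.7 over the 42 embryos. The widest were Zfp65 (268.6%), Zfp277 (157.0%), Zfp937 (147.7%), Zfp558 (128.9%) and Zfp541 (110.9%), a meiotic gene. For Zfp65 and Zfp277 the spread came with 2 embryos: without control replicates 22 and 26 it was 85.9% and 71.7%. Zfp558 (135.9%) and Zfp541 (107.3%) stayed about as wide without them.

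The genes named for pluripotency and chromatin, 14 of them measured, covered the whole range of levels. Zfp296 and Zfp143 (110.6 CPM per kb) were among the highest, and Zfp131, a BTB-domain factor, stood at 106.3. Zfp42, the marker of naive pluripotency also called Rex1, stood at 30.8 CPM per kb and Zfp281, a regulator of the exit from that state, at 28.8. Zfp148, a near relative, stood lower at 11.1. Of the KRAB zinc fingers known for retroelements or imprints, 5 were measured. Zfp932, a repressor of endogenous retroviruses, was highest at 58.9 CPM per kb, although 55.5% of its 50-base stretches lie in other genes too. Zfp568, which silences a placental promoter of Igf2, stood at 17.3 and Zfp445, a guardian of imprints, at 14.8 CPM per kb. Zfp708, a retroelement silencer, stood at 10.1 with 97.9% of its stretches shared, and Zfp819 at 6.22. Among 10 genes with roles in RNA, translation, ubiquitin, SUMO or the spindle, Zfp622 was highest, then Zfp207, the spindle protein BuGZ, at 88.6 CPM per kb. Zfp598, the ubiquitin ligase of stalled ribosomes, stood at 9.83 and Zfp451, a SUMO ligase, at 7.98.

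The first comparison asks whether the diet of the male whose sperm RNA was injected changes the embryo. No zinc finger gene passed an adjusted p of 0.05 in edgeR's quasi-likelihood test, 0 of 173, where 8 of 8721 genes tested (0.0917%) passed. At an unadjusted p under 0.05 there were 8 of the 173 (4.62%), close to the 3.99% of all genes. Higher estimates after low protein sperm RNA were found for 89 (51.4%, against 53.9% of all genes) and lower ones for 84, and the median log2 fold change was 0.01 against 0.02 over all genes. DESeq2 passed 3 (1.73%, against 0.206% of all genes): Zfp65, Zfp937 and Zfp11, each with a lower estimate after low protein sperm RNA, and 12 (6.94%, against 5.48% of all genes) at an unadjusted p under 0.05. These 3 had a mean under 20 CPM over the 88 embryos of both groups. Their control means were 29.9, 22.9 and 24.5 CPM, in the order named. They were chosen for description after their values were seen.

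Zfp65 (chromosome 13, 67705306 to 67729178) ran from 0 to 437.2 CPM with a median of 8.403 in control embryos. In low protein embryos it ran from 0.574 to 31.2 CPM with a median of 7.39. The medians lay close together and the groups overlapped; 2 control embryos, replicates 22 and 26, held 316.3 and 437.2 CPM, while no other control embryo passed 45.7. The log2 fold change was -1.49 ± 0.37 (SE), with an adjusted p of 0.10 by edgeR and 0.00402 by DESeq2. Without replicates 22 and 26 it was -0.47, adjusted p = 0.999 by edgeR. Zfp937 (chromosome 2, 150218077 to 150246738) showed the same embryos on top, at 138.3 and 160.3 CPM, with every other control embryo at or under 86.03. Its median was 10.3 CPM in control and 8.36 CPM in low protein embryos. Its log2 fold change was -1.20 ± 0.32 (SE, adjusted p = 0.156 by edgeR), and -0.54 without them. In Zfp11 (chromosome 5, 129654595 to 129670088) that pair was not on top. This gene ran from 3.21 to 123.0 CPM with a median of 18.3 in control embryos, and from 2.20 to 41.9 CPM with a median of 10.1 in low protein embryos. Its log2 fold change was -0.91 ± 0.25 (SE, adjusted p = 0.231 by edgeR), and -0.83 without replicates 22 and 26 (adjusted p = 0.999).

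**Figure D2:**
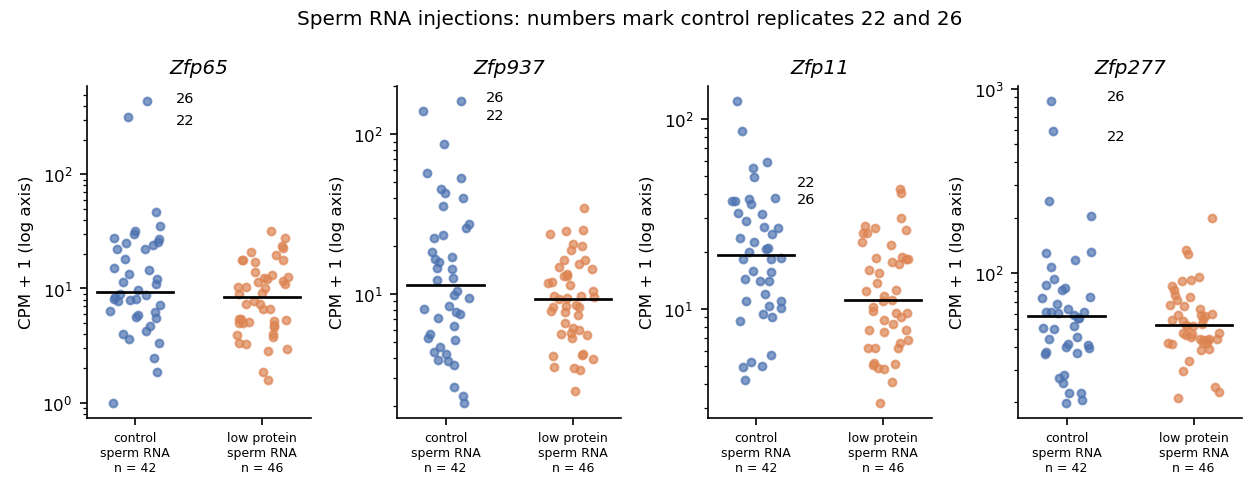
CPM (log axis, 1 added) of Zfp65, Zfp937, Zfp11 and Zfp277 in the 42 control and 46 low protein sperm RNA embryos; points are embryos, bars are medians, and the numbers mark control replicates 22 and 26. The pair stands above all other embryos for Zfp65, Zfp937 and Zfp277 and inside the group for Zfp11.

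Among genes with a mean of at least 20 CPM, the smallest p for a lower estimate belonged to Zfp277 (log2 fold change -0.71 ± 0.23, SE, edgeR adjusted p = 0.681), again with replicate 22 at 589.9 CPM where control embryos other than the pair did not pass 246.1. Without both replicates it was -0.14 (edgeR adjusted p = 0.999), and without batch E it was -0.18 (edgeR adjusted p = 1). Both replicates belong to batch E and share a title number. The fit without batch E therefore lacks them too and is not a separate check. The smallest p for a higher estimate belonged to Zfp735, with a mean of 54.1 ± 79.5 CPM (SD, n = 46) after low protein and 26 ± 19.5 CPM (SD, n = 42) after control sperm RNA (log2 fold change 0.91 ± 0.31, SE, edgeR adjusted p = 0.758). Its medians lay closer, at 31.5 and 23.2 CPM, and its log2 fold change was 0.33 with sample quality weights and 1.5 without batch E. Rex2 differed by 0.15 ± 0.13 and Zfp600 by 0.29 ± 0.15 on the log2 scale (SE, edgeR adjusted p = 1 for both). None of the 3 role lists had a gene past the adjusted threshold, and Zfp593 was the only listed gene with an unadjusted edgeR p under 0.05. Zfp593 was 1 of 10 genes tested on its list, where 3.99% of all genes had such a p. The pluripotency and chromatin genes split 7 higher and 7 lower, the retroelement and imprint genes 4 and 1, and the RNA, ubiquitin and spindle genes 6 and 4. Of the KAP1 silencing partners, which are not zinc finger genes of this set, 21 were tested and 0 passed. An unadjusted edgeR p under 0.05 was found for 1 of them, Rbbp7. Of the 21, 18 estimates were higher and 3 lower (median log2 difference 0.08), where 53.9% of all genes were higher (median 0.02). In the tRF table the same 21 split 13 higher and 8 lower after tRF-GlyGCC and 12 and 9 after tRF-GluCTC, against GFP. For tRF-GlyGCC against tRF-GluCTC they split 8 and 13. Trim28 stood at 220.6 ± 94.4 CPM (SD, n = 42) in control and 239.1 ± 90.6 CPM (SD, n = 46) in low protein embryos.

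The second set of comparisons asks what a single tRNA fragment does when injected alone. After tRF-GlyGCC, 0 of 173 zinc finger genes passed the adjusted threshold against GFP by edgeR, where 0% of 8804 genes passed, and DESeq2 also passed 0. At an unadjusted p under 0.05 edgeR gave 5 of 173 (2.89%, against 3.24% of all genes) and DESeq2 gave 5 (against 4.65% of all genes). Higher estimates were found for 80 (46.2%, against 55% of all genes) and lower ones for 93, with a median of -0.04 on the log2 scale against 0.04 over all genes. After tRF-GluCTC, 0 passed against GFP by edgeR, where 0% of all genes passed, and 0 by DESeq2, where 0.0114% of all genes passed. At an unadjusted p under 0.05 there were 4 (2.31%, against 3.46% of all genes) by edgeR and 7 (4.05%, against 4.85% of all genes) by DESeq2. Here 68 estimates (39.3%, against 49.6% of all genes) were higher and 105 lower, with a median of -0.20 against -0.01 over all genes. On average, fewer zinc finger genes had a count per embryo after tRF-GluCTC. The number was 155.5 ± 10.9 (SD, n = 6, range 139 to 169), against 166.5 ± 6.70 in GFP embryos (SD, n = 11, range 152 to 172). The same number over all genes was not compared, so the drop cannot be called particular to the zinc finger genes. Mean and median library depth were also lower after tRF-GluCTC than in GFP embryos, with overlapping ranges. The part of depth in this drop, and of the drop in the split, was not tested. Between the fragments, 0 passed by edgeR (0% of all genes) and 0 by DESeq2 (0.0114% of all genes), with 4 of 173 (2.31%, against 2.2% of all genes) by edgeR and 11 (6.36%, against 3.63% of all genes) by DESeq2 at an unadjusted p under 0.05. Higher estimates after tRF-GlyGCC than after tRF-GluCTC were found for 93 (53.8%, against 54.4% of all genes). The 3 comparisons share embryos, so they are not separate looks at the same question. A batch is the end code that titles share. Batch H held every one of the 6 tRF-GluCTC embryos, with 5 GFP embryos beside them. The other GFP embryos were of batch G, and the number of genes with a count given above pools both batches. For 26 genes the sign of the fitted tRF-GluCTC difference from GFP was opposite to that of the pooled means.

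The pair Rex2 and Zfp600 had the smallest p after tRF-GluCTC. Rex2 ran from 109.2 to 242.0 CPM with a median of 214.3 in the 6 tRF-GluCTC embryos. In GFP embryos it ran from 229.0 to 525.4 CPM with a median of 309.0, and after tRF-GlyGCC from 115.9 to 643.0 CPM with a median of 256.3. The tRF-GluCTC embryos were at the low end and overlapped both other groups. The log2 fold change of Rex2 was -1.19 ± 0.30 (SE) against GFP, with an unadjusted edgeR p of 0.000263 and an adjusted p of 1; over the alternatives the adjusted p ran from 0.0843 to 1. Within batch H alone the GFP mean was 393.7 ± 115.2 CPM (SD, n = 5), the tRF-GluCTC mean 196.9 ± 49.1 CPM (SD, n = 6) and the tRF-GlyGCC mean 374.2 ± 139.8 CPM (SD, n = 16), and the log2 fold change of tRF-GluCTC against GFP was -1.0. Batch G also differed from batch H for this gene, at 280.3 ± 42.3 CPM (SD, n = 6) in GFP and 192.2 ± 62.3 CPM (SD, n = 10) in tRF-GlyGCC embryos. Zfp600, which shares reads with Rex2, ran from 90.3 to 238.2 CPM with a median of 165.6 after tRF-GluCTC and from 185.8 to 426.8 CPM with a median of 242.3 after GFP. Its log2 fold change was -1.10 ± 0.33 (SE, edgeR adjusted p = 1), and -0.89 within batch H. Because of the shared reads, the 2 genes are not separate observations.

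Zfp534, the other set member nearby on chromosome 4 (start 147674225), did not share the pattern: in batch H it had a mean of 251.9 ± 84.95 CPM (SD, n = 5) in GFP and 232.7 ± 49.7 CPM (SD, n = 6) in tRF-GluCTC embryos. The difference between the genes was not tested. Zfp35 had the smallest p in the higher direction. It ran from 30.4 to 280.5 CPM with a median of 111.3 after tRF-GluCTC, from 1.86 to 72.1 CPM with a median of 50.96 in GFP embryos and from 7.20 to 166.4 CPM with a median of 43.9 after tRF-GlyGCC. The groups overlapped, and the log2 fold change against GFP was 1.71 ± 0.56 (SE, edgeR adjusted p = 1), and 1.77 within batch H. After tRF-GlyGCC the smallest p among genes of at least 20 CPM were for Zfp212 (-0.64 ± 0.30, SE) and Zfp664 (-0.40 ± 0.19, SE) on the low side and Zfp951 (0.72 ± 0.35, SE) on the high side, as log2 fold changes against GFP with an edgeR adjusted p of 1 for each. Over the alternatives these ran from -1.02 to -0.23 for Zfp212, from -0.65 to -0.13 for Zfp664 and from 0.07 to 0.95 for Zfp951. The role lists held 1 gene with an unadjusted edgeR p under 0.05 after tRF-GlyGCC, Zfp687, and none after tRF-GluCTC. Zfp687 had a mean of 8.49 ± 8.65 CPM (SD, n = 26) after tRF-GlyGCC against 19.2 ± 12.46 CPM (SD, n = 11) in GFP embryos. It was 1 of 14 genes tested on its list, where 3.24% of all genes had such a p after tRF-GlyGCC.

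**Figure D3:**
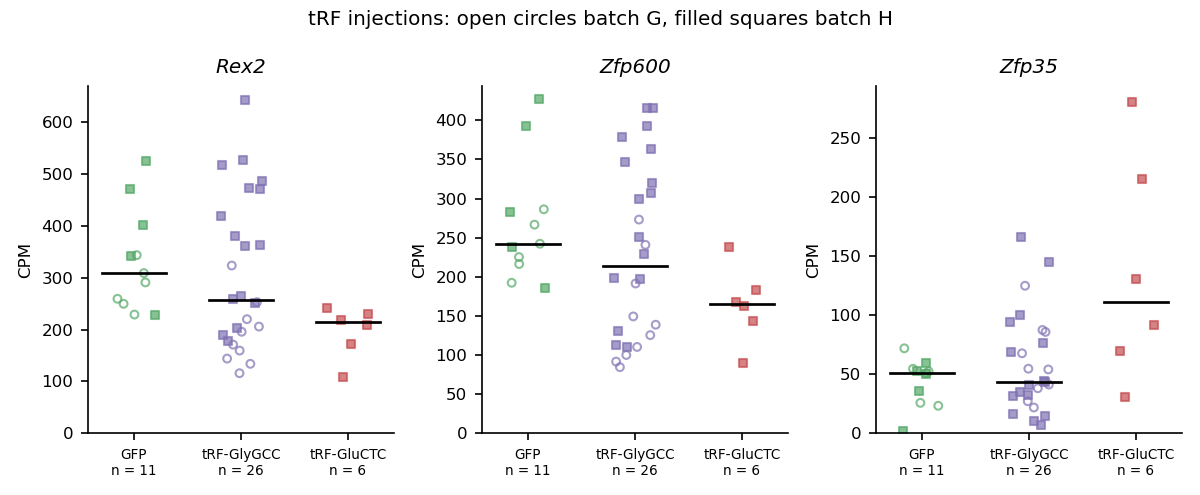
CPM of Rex2, Zfp600 and Zfp35 in the 2-cell embryos of the tRF table (11 GFP, 26 tRF-GlyGCC and 6 tRF-GluCTC); points are embryos, open circles batch G, filled squares batch H, and bars are medians. The tRF-GluCTC embryos lie low for Rex2 and Zfp600 and high for Zfp35, and overlap the other groups in each panel.

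The third comparison asks what follows when tRF-GlyGCC is blocked by an antisense oligonucleotide, read at the 4-cell stage. Of the 173 genes 172 were listed there (Zfp65 was not), with a median level of 7.26 FPKM. The 103 whose mean over the 55 embryos reached 5 FPKM were tested. None passed the adjusted threshold in limma, 0 of 103, where 2 of 7237 features (0.0276%) passed. At an unadjusted p under 0.05 there were 16 of 103 (15.5%), against 10.9% of all features. The estimates were higher after antisense for 74 (71.8%) and lower for 29, where 52.7% of all features were higher, with a median log2 fold change of 0.09 against 0.01 on the log2(FPKM + 1) scale. When embryos were scaled to the same upper quartile, 58 of 105 (55.2%) were higher against 42.3% of all features, with medians of 0.03 and -0.04. The genes were not independent of each other, and no test was made of the shift. In the main fit, the sign of the fitted difference was not that of the difference in pooled means for 14 genes. The GFP embryos of batch R had no antisense embryo in their batch. With the batch term they add nothing to the fitted difference, but the GFP means, medians and ranges include them. Markers of earlier stages were also higher on average after antisense. The summed level of the 2-cell markers Zscan4d and Zfp352 had a mean of 19.9 FPKM (median 9.77, range 2.46 to 97.5) against 6.56 FPKM (median 5.74, range 1.65 to 20.2) in GFP embryos, and the 4 oocyte transcripts summed to a mean of 262.0 FPKM (range 87.6 to 488.9) against 229.6 FPKM (range 83.5 to 910.4). The antisense group also held an embryo with only 6644 features at 1 FPKM or more, where the lowest GFP embryo had 9155. Without antisense replicates 9 and 19, 82 of 106 zinc finger genes (77.4%) were higher, against 59.2% of all features. The part of these markers in the shift was not tested.

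Zfp791 had the smallest p at this stage. It ran from 3.09 to 37.5 FPKM with a median of 15.8 in GFP embryos and from 8.29 to 80.5 FPKM with a median of 23.1 after antisense. The groups overlapped, with a log2 fold change of 0.74 ± 0.20 (SE, limma adjusted p = 0.155; 0.0828 to 0.535 over the alternatives). Zfp622 ran from 45.8 to 204.0 FPKM with a median of 92.3 in GFP embryos and from 46.6 to 550.4 FPKM with a median of 129.3 after antisense. Its low ends were alike and some antisense embryos stood far higher, with a log2 fold change of 0.67 ± 0.19 (SE, limma adjusted p = 0.167). On the low side stood Zfp217, a corepressor, at 27.2 to 122.0 FPKM with a median of 45.6 in GFP embryos and 8.60 to 60.1 FPKM with a median of 40.1 after antisense (log2 fold change -0.48 ± 0.15, SE, limma adjusted p = 0.186). Zfp936 (0.37 ± 0.12) and Zfp930 (0.44 ± 0.15) followed among the higher estimates, both with a limma adjusted p of 0.210. Rex2 differed by 0.32 ± 0.13 and Zfp600 by 0.31 ± 0.13 (SE, limma adjusted p = 0.324 and 0.346). Of the role lists, the unadjusted limma p was under 0.05 for Zfp644 and Zfp217, for Zfp568 and for Zfp622. These were 2 of 11, 1 of 5 and 1 of 9 genes tested on their lists, in that order, against 10.9% of all features. The KAP1 partners had 19 features tested, 12 higher and 7 lower, where 52.7% of all features were higher, and 0 passed. At an unadjusted limma p under 0.05 there were 3 of the 19 (Pphln1, Chd4 and Cbx1).

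The order of the genes differed between the stages, read in tables made in different units and from different embryos, so stage and table cannot be told apart. Over the 171 genes with both values, log2 levels correlated at r = 0.76, and 6 of the 10 highest at the 2-cell stage were among the 10 highest at the 4-cell stage. Zfp296 led at the 4-cell stage with a mean of 440.6 FPKM, followed by Zfp960 at 210.2, whose reads are shared with Zfp97, and Zfp207 at 209.4. Among genes in the first 50 places at the 2-cell stage, the largest losses of place were those of Zfp108 (36 to 153), Zfp68 (45 to 125), Zfp54 (10 to 83), Zfp957 (26 to 82) and Zfp942 (42 to 96). Zfp54 stood at 104.1 CPM per kb at the 2-cell stage and 7.87 FPKM at the 4-cell stage. Among genes in the first 50 places at the 4-cell stage, the largest gains were those of Zfp771 (127 to 36), Zfp219 (133 to 47), Zfp777 (135 to 50), Zfp644 (89 to 21) and Zfp934 (77 to 26). Zfp771 stood at 6.32 CPM per kb and then 33.8 FPKM. These 10 were chosen by their change of place, which is therefore a description.

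**Figure D4:**
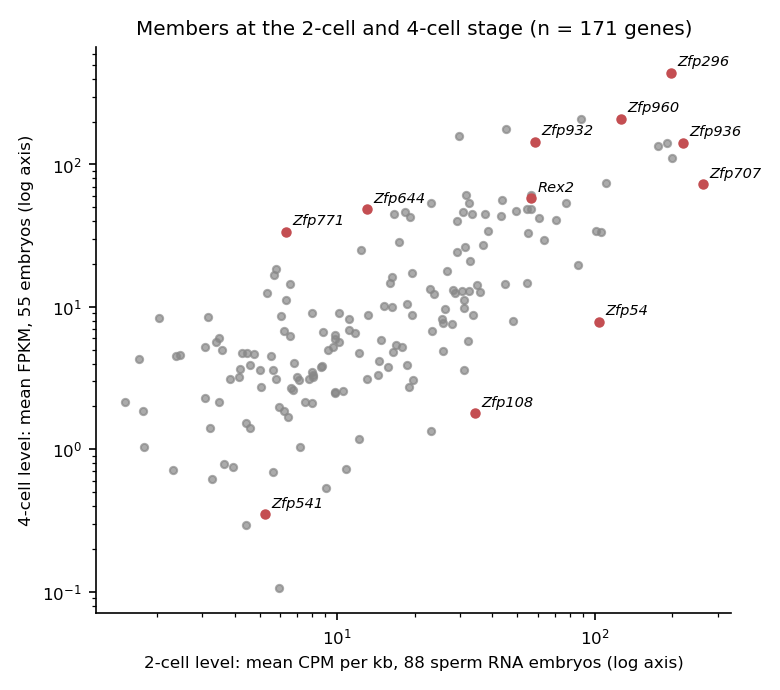
Mean level of 171 zinc finger genes at the 2-cell stage (CPM per kb, 88 sperm RNA embryos) against the 4-cell stage (FPKM, 55 embryos), both on log axes; points are genes and the labelled ones are red. Zfp296 is highest at the 4-cell stage, while Zfp108 and Zfp54 lie below and Zfp771 and Zfp644 above the bulk of the cloud.

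Between embryos, pairs of zinc finger genes correlated on both sides of 0. Within batches of the sperm RNA table, the median correlation over all 14878 pairs of zinc finger genes was 0.01 (88 embryos, log2 CPM), with a range of -0.68 to 0.93. In the tRF table the median was 0.03. Rex2 and Zfp600 correlated at 0.93 in the sperm RNA table and 0.93 in the tRF table (43 embryos), and they share reads. The genes most like Rex2 over the 88 embryos were Gm13242 (0.94; a chromosome 4 relative now named Zfp980), Zfp600 (0.93) and, far behind, Kmt2d (0.62), which fell to 0.18 in the tRF table. Rex2 with Zfp534 gave 0.20 and Zfp600 with Zfp534 gave 0.21. Other close copies behaved unevenly. Zfp442 with Zfp937, 92.3% identical where aligned but with 498 gap positions, gave 0.65 in the sperm RNA and 0.67 in the tRF table. Zfp808 with Zfp934, 98.0% identical where aligned but with 840 gap positions, gave 0.58 and 0.74. Zfp960 with Zfp97, 98.2% identical with 0 gap positions, gave 0.39 and 0.085. Of the 173 genes, 75 lay in 16 genomic clusters of 3 or more with starts within 500 kb of the next. The cluster of 14 on chromosome 17 (21008941 to 22456689) had a median pair correlation of 0.04, and the cluster of 9 on chromosome 7 (29768552 to 30107622) one of -0.01. The highest cluster median was 0.37, for Zfp7, Zfp251 and Zfp647 on chromosome 15, and it was 0.39 in the tRF table. The lowest was -0.30, for Zfp617, Zfp709 and Zfp961 on chromosome 8, and it was -0.12 in the tRF table.

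A further pattern between embryos followed 2 oocyte transcripts and was not particular to the zinc finger genes. Gdf9 and Bmp15, growth factors of the oocyte, correlated with each other at 0.65 over the 88 sperm RNA embryos within batches. With their mean, 28 of the 173 zinc finger genes correlated above 0.3 in both 2-cell tables (16.2%, against 24% of all genes) and 38 below -0.3 (22%, against 25.9% of all genes). Among the 138 with a mean of at least 20 CPM the shares were 17.4% and 26.1%. This pair of oocyte genes, out of 4 on the marker list, and the limit of 0.3 were chosen after a principal component of the zinc finger genes had been seen. The other 2 did otherwise, with Oosp1 at 0.37 and Zp3 at -0.17 in the sperm RNA table, so the pattern does not hold for all 4 oocyte transcripts. The highest genes were Zfp592 (0.64 in the sperm RNA and 0.56 in the tRF table), Zfp957 (0.62 and 0.68) and Zfp951 (0.57 and 0.65), and Rex2 stood at 0.37 and 0.31. The lowest were Zfp821 (-0.75 and -0.71), Zfp599 (-0.67 and -0.63) and Zfp949 (-0.63 and -0.74). Across the 173 genes the values of the 2 tables correlated at 0.90, and those of control and low protein embryos at 0.76. In the 4-cell table the values did not carry over, with a correlation of 0.02 across genes. Library depth, put in the place of the oocyte genes, gave values that correlated at -0.39 with these, and its part in the pattern was not tested.

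**Figure D5:**
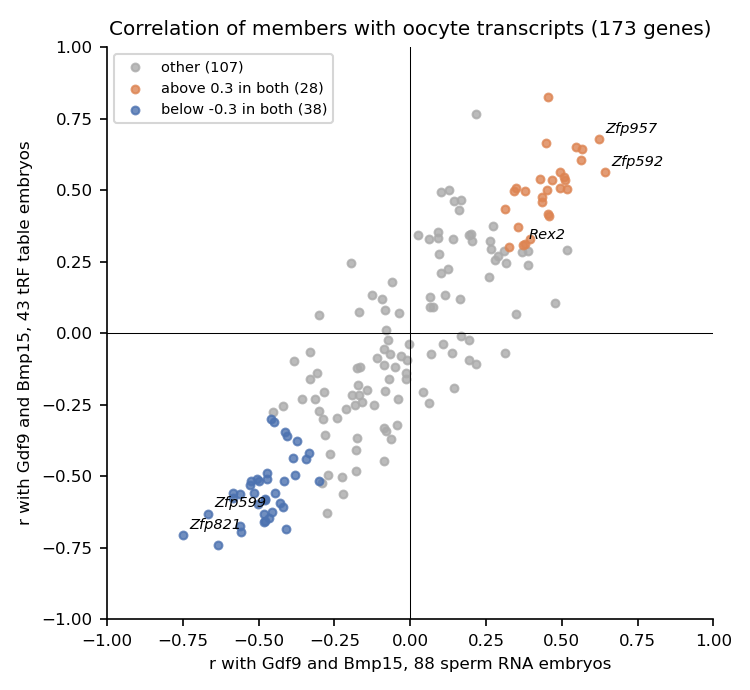
Correlation of each of 173 zinc finger genes with the mean of Gdf9 and Bmp15 (log2 CPM within batches) in the 88 embryos of the sperm RNA table and the 43 embryos of the tRF table; each point is a gene. The 28 genes above 0.3 in both tables are orange and the 38 below -0.3 are blue; Zfp592 and Zfp957 lie at the upper end and Zfp821 at the lower.

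The 2 groups cannot share a gene, by the way they were defined, and their median places differed at both stages. The 28 that rose and fell with Gdf9 and Bmp15 had a median place of 83.5 at the 2-cell stage and 135 at the 4-cell stage, and 6 of the 28 held a better place at the 4-cell stage. The 37 of the opposite group with both levels had medians of 53 and 44, with 15 at a better place, and among all 171 genes 83 were. The promoters of the first group held a median of 10.5 CpG pairs (26 windows, range 2 to 42). Those of the opposite group held a median of 18 (28 windows, range 4 to 36), so the ranges overlapped. No gene of either group passed the adjusted threshold of edgeR or limma in the 5 comparisons. After low protein against control sperm RNA, 18 of the 28 had higher estimates and 10 lower, at a median log2 difference of 0.07. The 38 split 19 and 19, and 53.9% of all genes had higher estimates. Bmp15 itself differed by 0.39 ± 0.22 and Gdf9 by 0.01 ± 0.16 on the log2 scale (SE, edgeR adjusted p = 1 for both). In the antisense comparison at the 4-cell stage, 29 of the 33 tested genes of the opposite group had higher estimates (median 0.15) and 8 of the 12 tested of the first group (median 0.05), beside the 71.8% of all tested zinc finger genes and the 52.7% of all features given above. The 2-cell and oocyte markers given there were also higher on average after antisense, and their part in it was not tested.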

How the data were processed

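The genes and lists were chosen with earlier results of these data known. Per the submitters' processing notes, Bowtie was used with mm10; the counter and its gene models were not given in the sources used here. In both 2-cell tables the authors deposited expected counts for 8735 and 8805 genes, with 0 shown as 0.1, and the 4-cell table holds FPKM deposited by the authors, with 0 shown as 0.001, so that the depth at that stage is unknown. Expected counts were rounded, scaled by TMM and tested over all genes with edgeR 4.0.16 (quasi-likelihood, filterByExpr, batch term, Benjamini-Hochberg adjustment); CPM use the same factors. FPKM of features with a mean of at least 5 went into limma 3.58.1 on the log2(FPKM + 1) scale, batch included. Zfp433 and Zfp781 have several 4-cell features and the highest stands for the gene. Batches are the end codes of the titles, which the 2-cell tables call a date: A to F, G and H, and J to R. No label ties embryos to litters, and the spread behind each p-value is that between these libraries, which may be technical. Alternatives were DESeq2 1.42.0, other scalings and filters, sample weights, other batch terms and leaving out embryos or batches. Genes per length use GENCODE transcripts of the mm10 assembly. Promoters are RefSeq's, with chromosome 18 left out before the windows were counted. Named genes are the 10 highest and 5 lowest per length, the 4 higher and 4 lower estimates of smallest p per comparison at a mean of at least 20 CPM (5 FPKM), the 5 widest and 5 steadiest in control embryos, the role lists, Rex2 with Zfp600, and the 3 genes most like Rex2; the text gives those that differ most. Genes outside this rule (Zfp65, Zfp937 and Zfp11 in the sperm RNA comparison, the pairs of close copies, the genes of largest change of place and those named with Gdf9 and Bmp15) were named after their values were seen. The fits were tested on simulated data. Protein sequences were not used here.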

Additional observations from a re-analysis of the deposited data

Results flagged for a closer look

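In the 6 tRF-GluCTC embryos, 21 zinc finger genes were examined for an embryo far from the others, and 4 had a gap to the nearest embryo that was wider, as a share of the range, than Dixon's critical value for 6 values. About 1 in 20 such groups would pass by chance if the values were normally distributed, which was not tested for these CPM. The 21 genes were read in the same 6 embryos, so the 4 are not separate observations. For Zfp54 the gap was 0.804 of the range, with the highest embryo at 581.3 CPM and the next at 123.3. For Zfp951 it was 0.669 (435.5 and 228.6 CPM), for Zfp808 0.692 (136.7 and 90.5 CPM) and for Zfp655 0.653 (616.5 and 314.7 CPM).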

How the results depend on the processing

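No zinc finger gene passed the adjusted threshold in any of the 5 comparisons under the alternatives run, except in the low protein comparison, where DESeq2 passed 3 (Zfp65, Zfp937 and Zfp11), the fit with no batch term passed 1 (Zfp65), the fit without batch A passed 1 (Zfp65) and the fit without batch C passed 2 (Zfp65 and Zfp937); the cause was not tested. For the fits with no batch term, without batch A or without batch C, the number of all genes passing was not set beside these counts. Without control replicates 22 or 26, or both, 0 zinc finger genes passed. With batch and title number as a replicate block, 0 passed in each comparison. Same-numbered embryos of 2 groups deviated together at a median correlation of 0.03 (sperm RNA table), 0.10 (tRF table) and 0.03 (4-cell table). Single values ran from -0.547 to 0.655. Embryos of different numbers in the same batch gave medians of -0.01, -0.005 and -0.011. Whether a shared number marks a shared origin was not tested. Of 522 fold changes of named genes under alternatives, 513 kept their direction and side of the threshold, 7 passed it (those of the 3 genes above) and 2 reversed: Zfp281 after tRF-GlyGCC was -0.02 in batch G alone, and Zfp800 between the fragments was 0.37 with sample quality weights. In the antisense comparison 115 of 172 genes had higher estimates with no filter on low values (53.9% of all features) and 64 of 106 (60.4%) without batch P (49.2% of all features). Sample quality weights gave 56 of 173 higher after tRF-GlyGCC, against 80, while the share of all genes went from 55% to 45.8%. The spread of Zfp65 and Zfp277 without replicates 22 and 26, an alternative chosen after seeing the data, is given above. The depth of the 4-cell libraries is unknown, and genes of shared sequence (Rex2, Zfp600, Zfp708, Zfp960) are uncertain.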
